A study of Mus musculus with 146 samples.

Results

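Of 146 single-cell libraries made from the ovaries of newborn mice, all but 1 held at least 1 TPM of Ddx4, the germ cell RNA helicase also called Vasa, and 41 of these germ cells (28.3%, exact 95% interval 21.1 to 36.3%) carried at least 100 TPM of Hbb-bs, an adult beta globin mRNA. They are called carrying cells here. Another 54 cells (37.2%, interval 29.4 to 45.7%) had Hbb-bs below 1 TPM and are called free cells, and the 50 cells with values from 1 to 100 TPM lay in between. TPM gives the share of a gene's transcripts in its library after division by length, and the intervals cover counting error only. The last library below the upper limit held 84.3 TPM and the first at or above it 109.4 TPM. At the lower limit the neighbouring values were 0.823 and 1.27 TPM. The dropped library, S029, had a Ddx4 value of 0, and the lowest retained value was 7.49 TPM. Because Hbb-bs chose the cells, globin levels are given as a description and without a test.

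All cells came from C57/BL6J females aged D0.5, with the same strain and age in both sets and no treatment. The 5 ovaries of littermate pups were freed of oviduct and bursa and digested with trypsin, EDTA and DNase I, then single germ cells were picked by mouth pipette, washed in PBS and lysed for Smart-seq2, a method that amplifies polyadenylated RNA of 1 cell along its length. Before sequencing the authors had screened the amplified cDNA by quantitative PCR and discarded samples positive for Foxl2, a gene of pregranulosa cells. Levels of that cell type's genes are therefore those left after this selection, and the part of the screen in them was not tested. The labels name no animal, plate or picking order for a cell, so all cells were treated as 1 sample: the spread between cells is shown, and neither a p-value nor a standard error was computed. Estimated reads assigned to genes, in units of 1e6, ranged from 1.41 to 26.9 over the 146 libraries, with medians of 9.75 in carrying and 8.69 in free cells.

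Haemoglobin is made of alpha and beta globin chains around haem, and developing red cells devote most of their mRNA to these chains before they lose the nucleus. The alpha cluster, with Hba-x, Hba-a1, Hbq1b and Hba-a2, and the beta cluster, with Hbb-y, Hbb-bs and Hbb-bt, lie on different chromosomes, and in both clusters embryonic genes give way to adult genes well before birth. Alas2 encodes the red cell form of 5-aminolevulinate synthase, the first enzyme of haem synthesis, while its relative Alas1 serves other tissues. Young red cells that have lost their nucleus still hold globin mRNA, so globin is a frequent companion of cells taken from a tissue with blood in it.

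The genes that define the comparison lie on chromosomes 7, 11 and X. In the GENCODE M21 annotation of the mouse, Hbb-bs spans chr7:103826534-103828096 and Hbb-bt chr7:103812524-103813996, both on the minus strand, and Hba-a1 spans chr11:32283511-32284465 and Hba-a2 chr11:32296489-32297298 on the plus strand. Alas2 spans chrX:150547375-150570638 on the plus strand. To show which letters the 4 globin genes and Alas2 share near their starts, the 110 bases that end at the RefSeq start of each gene (build GRCm38.p6) are printed 5′ to 3′ on the gene's strand. The annotations place some starts differently: the windows of Hba-a1 and Hbb-bs lie within the GENCODE spans, and those of the other genes overlap them in part. Capitals mark every match, on either strand, to 4 motifs: the CACCC box (letters CACCC), the CCAAT box (letters CCAAT), the TATA box (searched as TATAA) and the GATA site (letters GATA). In Hbb-bt a forward and a reverse CCAAT box stand side by side, and in Alas2 the reverse CACCC matches do.
Hba-a1, chr11:32283562-32283671, plus strand: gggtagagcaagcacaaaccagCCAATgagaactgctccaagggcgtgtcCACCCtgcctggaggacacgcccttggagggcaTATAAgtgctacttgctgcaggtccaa
Hba-a2, chr11:32296382-32296491, plus strand: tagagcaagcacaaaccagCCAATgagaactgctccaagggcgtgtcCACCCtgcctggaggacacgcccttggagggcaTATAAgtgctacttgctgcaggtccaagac
Hbb-bs, chr7:103827929-103828038, minus strand: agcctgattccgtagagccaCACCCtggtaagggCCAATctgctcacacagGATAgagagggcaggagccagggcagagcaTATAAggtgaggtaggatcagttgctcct
Hbb-bt, chr7:103813924-103814033, minus strand: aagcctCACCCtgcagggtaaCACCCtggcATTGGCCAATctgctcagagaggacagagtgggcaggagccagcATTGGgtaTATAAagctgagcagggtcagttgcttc
Alas2, chrX:150547307-150547416, plus strand: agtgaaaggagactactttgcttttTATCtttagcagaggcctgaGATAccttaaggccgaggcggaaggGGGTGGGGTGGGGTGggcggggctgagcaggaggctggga

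Each of the 4 globin windows held the CACCC box, the CCAAT box and the TATA box letters. Alas2 held the CACCC box only on the reverse strand, at 3 places, and the GATA site on both strands, without the letters of the other motifs. Over windows of the same length in 32851 promoters, 29.6% held the CACCC box letters, 20.2% those of the CCAAT box, 10.9% those of the TATA box and 27.3% those of the GATA site. The windows of Hba-a1 and Hba-a2 were identical at 97.3% of 110 bases at the best shift, and those of Hbb-bs and Hbb-bt at 72.7%. The matches describe letters in these windows and were not tested as sites.

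Copies this alike also share reads. The reading frames of Hba-a1 and Hba-a2, 429 bases each, differ at 1 base, and those of Hbb-bs and Hbb-bt, 444 bases each, also at 1 base. Of the 31-base stretches in the Hba-a2 transcript, 91.03% occur in Hba-a1, and of those in Hbb-bs 66.9% occur in Hbb-bt. No such stretch was shared between Hba-a1 and Hbb-bs. The split of reads within the alpha pair and within the beta pair is therefore uncertain. It bears less on the sum of each pair, which still depends on it because the transcripts of a pair differ in length.

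Hbb-bs itself spanned a wide range in the carrying cells. Its lowest value was 109.4 TPM, its median 1152 TPM and its highest 88606 TPM, in library S126. In 50 of the 54 free cells it was listed at exactly 0. Hba-a1, the alpha chain marker, ran from 15.1 over a median of 848 to 76460 TPM in carrying cells, and Hba-a2 from 15.4 over 1555 to 152707 TPM. Hbb-bt, the minor of the adult beta chains here, ran from 0 over 52.4 to 6743 TPM. All 41 carrying cells held both alpha genes, and 36 of 41 held Hbb-bt at 1 TPM or more.

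The free cells were free of Hbb-bs, not of every globin. Hba-a1 reached 1 TPM in 16 of 54 of them (29.6%, exact 95% interval 17.98 to 43.6%) and Hba-a2 in 14 (25.9%, interval 14.96 to 39.7%), and the sum of both reached 100 TPM in 2 cells. The highest free cells for alpha globin were S037, with 72.8 TPM of Hba-a1 and 152 TPM of Hba-a2, and S122, with 49.04 and 56.9 TPM. Hbb-bt was above 0 in 1 free cell, at 0.158 TPM. For alpha globin the carrying and free sets thus overlapped: the lowest carrying sum of Hba-a1 and Hba-a2, 34.1 TPM in S129, lay below the highest free sum of 225 TPM.

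The embryonic and minor genes of both clusters were at or near 0 in every set. Hbb-y, the embryonic beta chain, was seen in S126 alone, at 11.03 TPM, and Hba-x, the embryonic alpha chain, in 3 carrying cells with a highest value of 21.8 TPM. Hbb-bh3 reached 2.51 TPM in 1 carrying cell and the pseudogene Hba-ps4 14.3 TPM in S126. Hbq1b, a theta-type gene of the alpha cluster whose symbol does not begin with Hba- and which therefore stayed in the rescaled values, was present in the carrying cells S086 and S126 at 49.9 and 41.8 TPM, in no free cell at 1 TPM, and in the in-between cell S136 at 107.4 TPM. Nearly all globin TPM of these libraries thus came from the 4 adult genes.

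**Figure D1:**
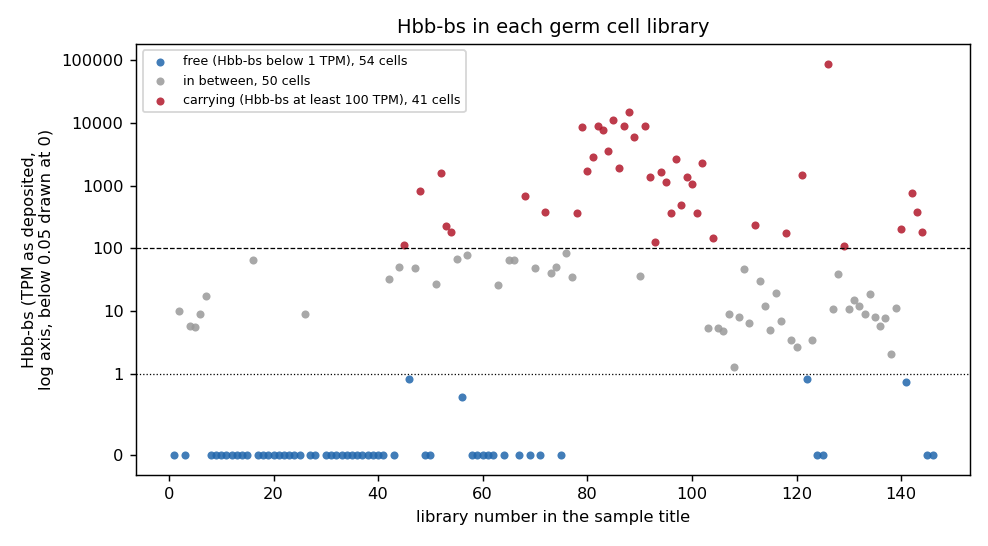
Hbb-bs in TPM on a log axis against the number in the library's title, 1 point per cell, with the limits of 100 TPM (dashed) and 1 TPM (dotted). Of the 25 libraries S078 to S102, 24 carry Hbb-bs at 100 TPM or more, and the free cells lie mostly below number 50.

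Carrying cells were not spread evenly over the libraries. The titles number the libraries, and 24 of the 25 libraries S078 to S102 carried Hbb-bs (96%), while S090 lay in between at 36.4 TPM. Of the 25 libraries numbered 1 to 25, 0 did, which allows a share of up to 13.7%. Between those runs the counts were 2 of 24 for numbers 26 to 50 and 5 of 27 for numbers 51 to 77, and after them 4 of 23 for S103 to S125 and 6 of 21 for S126 to S146. Free cells showed the opposite course, with 19 of 25 in numbers 1 to 25, 18 of 24 in numbers 26 to 50 and 0 of 25 in the run from S078 to S102. The labels do not say what the number stands for. The run was picked out by these values after they were seen, so its share of carrying cells is given without an interval. Because the run contains no free cell, library number and globin set cannot be told apart within it. The summed level of each red cell, blood, plasma and somatic list, and Alas2, is therefore also given for the 17 carrying cells outside the run.

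The level within the carrying cells followed the same course. In the 24 carrying cells of the run, Hbb-bs ranged from 125.8 over a median of 2084 to 15202 TPM. In the 17 outside it ranged from 109.4 over 233 to 88606 TPM. The ranges overlapped and S126 lay above all others. Globins made up 32.5% of all TPM in S126, against a median of 0.349% and a lowest share of 0.0145% over the carrying cells. The share was 1% or more in 11 carrying cells, 10 of them in the run and the other S126.

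Dividing by the remaining TPM, as the comparison requires, therefore changed little except in 1 library. All values of other genes below are TPM rescaled so that a library's genes without those beginning Hba- or Hbb- sum to the full TPM total. The factor was 1.48 for S126, at a median of 1.00 over the carrying cells, and at most 1.05 in the run. S126 stands apart from the other carrying libraries, so results that rest on it are given with and without it.

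**Figure D2:**
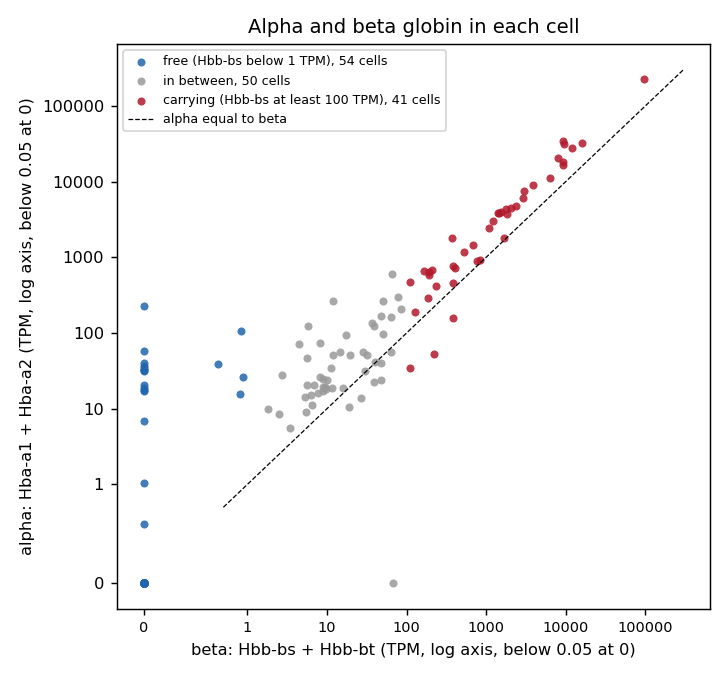
Sum of Hba-a1 and Hba-a2 against sum of Hbb-bs and Hbb-bt in TPM, both on log axes, 1 point per cell, with values under 0.05 drawn at 0 and a dashed line where both are equal. Carrying cells form a band along the line, most of them above it, and the free cells with alpha globin lie at or near 0 on the beta axis.

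Alpha and beta globin went together over the carrying cells. The ratio of the alpha sum to the beta sum had a lowest value of 0.239 in S053, a median of 2.22 and a highest value of 4.76 in S078. It was 1 or more in 38 of 41 cells. Spearman's rho between both sums was 0.95 over the 41 carrying cells, which share depth and amplification within each library, and 0.55 over the 50 in-between cells. In-between cells had a median ratio of 2.48 with a range from 0 to 21.6, wider at both ends than that of the carrying cells. Within the beta pair Hbb-bs took 95.5% of the TPM at the median and 88.1% at the lowest of the carrying cells.

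Alas2 came along with globin in part of the carrying cells. It reached 1 TPM in 17 of 41 carrying cells (41.5%, exact 95% interval 26.3 to 57.9%) and in 2 of 54 free cells (3.70%, interval 0.452 to 12.7%). Those 17 values began at 1.15 TPM in S140 and ended at 165 TPM in S052 and 676 TPM in S126. The free cells with Alas2 were S035 with 8.58 and S145 with 8.87 TPM, and 24 carrying cells fell below 1 TPM, so the sets overlapped. Mean levels were 31.01 TPM in carrying and 0.330 TPM in free cells. The log2 ratio of these means, each raised by 1 TPM, was 4.59, and all ratios below were formed this way. Without S126 the log2 ratio was 3.58.

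The share with Alas2 was alike inside and outside the run of library numbers. It was 10 of 24 carrying cells in the run (41.7%, exact 95% interval 22.1 to 63.4%) and 7 of 17 outside it (41.2%, interval 18.4 to 67.1%). The log2 ratio with the 17 alone was 5.32, and 3.41 when S126, which is among them, was also left out. When only the 17 free cells numbered above 50 were set against all carrying cells it was 4.39, and 1 of those 17 held Alas2. After every library was thinned to 500000 reads, 14 carrying and 2 free cells still had an Alas2 read.

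Alas2 did not simply scale with globin. It was present at 1 TPM in 10 of the 20 carrying cells with most adult globin and in 7 of the other 21, which lie at or below 3486 TPM. Spearman's rho of Alas2 with the sum of the 4 adult globins was 0.38 over the 41 carrying cells and 0.32 without S126. S085, S083 and S089, with adult globin sums among the highest, had an Alas2 value of 0. In-between cells resembled the free cells, with Alas2 in 3 of 50 (6%, exact 95% interval 1.25 to 16.5%) at values from 5.13 to 22.6 TPM.

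**Figure D3:**
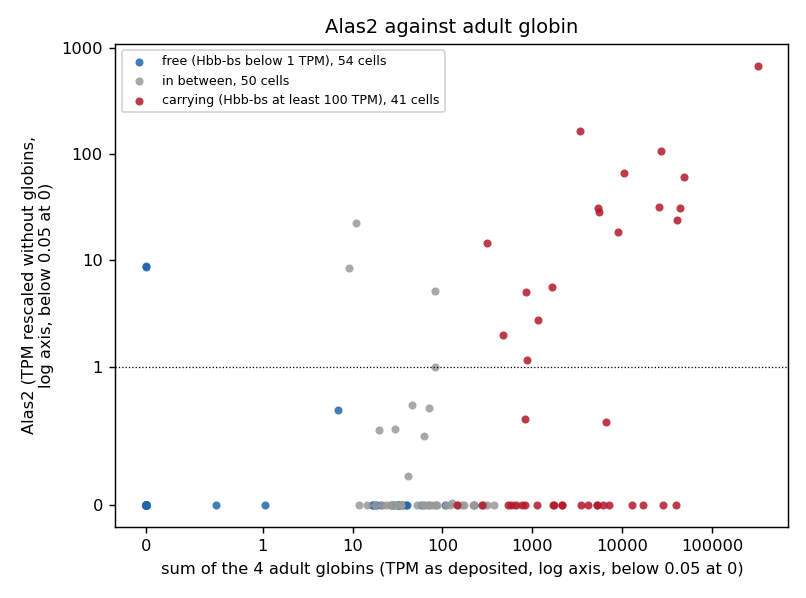
Alas2 in rescaled TPM against the sum of the 4 adult globins in deposited TPM, both on log axes with values under 0.05 drawn at 0, 1 point per cell. Of the cells above 1 TPM of Alas2 (dotted line) 17 are carrying, 3 in between and 2 free, and S126 lies alone at the upper right with 676 TPM.

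The other red-cell-restricted genes gave values that depended on the cells compared. Of 22 listed genes 21 were in the files, and 7 had a mean of at least 1 TPM over both sets. Of these 7, 1 (Alas2) was higher in the carrying cells by 2-fold or more and 1 (Gata1) lower, against 8.14% of 17586 genes higher and 8.2% lower. Their median log2 ratio was -0.33, beside 0.02 over all genes. The summed level of the list was 53.7 TPM in carrying and 30.9 TPM in free cells, a log2 ratio of 0.78. It was 0.16 without S126, 1.10 without S037, 1.19 with the carrying cells outside the run and 2.79 against the free cells numbered above 50. It turned to -0.27 outside the run without S126, to -0.12 among cells with Sohlh1 and without Zp3, and to -0.036 among cells with Zp3. Without Alas2 the mean sum was lower in carrying cells, 22.7 against 30.6 TPM, whereas the median sum was higher, 14.2 against 4.14 TPM. The log2 ratio of these means was -0.42. It was -0.09 without S037, -0.60 without S126 and -0.62 with the carrying cells outside the run (-1.25 there without S126), but 1.68 against the free cells numbered above 50, so its direction turned with the free cells used.

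The surface and membrane proteins of the mature red cell were sparse. Slc4a1, the anion exchanger band 3, reached 1 TPM in 3 carrying cells and 1 free cell, at most at 7.25 TPM. Kel, the Kell blood group protein, was found in 1 carrying cell, S126, at 41.7 TPM, and in no free cell. Epb42, the membrane skeleton protein 4.2, was found in 17 carrying and 14 free cells, with means of 4.61 and 1.86 TPM and a log2 ratio of 0.97. Rhd, which encodes an Rh blood group protein, was found in 15 and 17 cells at means of 9.08 and 11.7 TPM. Hemgn and Trim58 reached 1 TPM in no cell of either set.

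Transcription factors of red cell development were found in few cells of either set. Gata1 was detected in 7 carrying and 7 free cells with means of 1.40 and 7.27 TPM, a log2 ratio of -1.78. The free mean rested on S012 with 311 TPM, and without it the log2 ratio was -0.08. All 7 carrying cells with Gata1 were in the run, and 0 of the 17 free cells numbered above 50 held it. The authors also name Gata1 among the regulons enriched in these germ cells. Klf1 was detected in 5 cells of each set, and Nfe2 in 1 carrying and 3 free cells. Gfi1b, Tal1 and Epor, the receptor of erythropoietin, each reached 1 TPM in 1 free cell and in no carrying cell.

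That free cell was the same library for each of these genes. S037 held no Hbb-bs, yet 9 of the 21 red-cell-restricted genes reached 1 TPM in it, among them Gfi1b at 71.4 TPM, Rhd at 57.8 TPM, Nfe2 at 51.7 TPM, Rhag at 46.8 TPM, Gata1 at 46.7 TPM and Klf1 at 30.4 TPM. It was also the free cell with most alpha globin, and it held Car2, carbonic anhydrase 2, at 252 TPM. Its Ddx4 level was 271 TPM. S126, the carrying cell with most globin, held 8 of the 21, but with Alas2, Kel and Tspo2 at 676, 41.7 and 28.8 TPM and with Gata1 and Gfi1b below 1 TPM. Apart from these libraries the number of red-cell-restricted genes in a cell was at most 5 in the carrying set and at most 3 in the free set. At least 3 of them were found in 13 of 41 carrying cells (31.7%, exact 95% interval 18.1 to 48.1%) and in 2 of 54 free cells (3.70%, interval 0.452 to 12.7%). In-between cells held as many in 9 of 50 (18%), and carrying cells in 9 of 24 in the run and 4 of 17 outside it. The count includes Alas2. Detection differed over all genes too: a gene of median frequency was found in 48.8% of carrying and 37.0% of free cells. The part of detection in the count was not tested.

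Haem synthesis and iron genes, which every cell needs to some degree, had similar sums. Of 17 members tested, Blvrb was 2-fold higher and Uros, a haem synthesis enzyme, 2-fold lower, close to the shares of 8.14% and 8.2% over all genes, with a median log2 ratio of 0.04. The log2 ratio of Uros went from -1.18 to -0.95 without S012. Ftl1, the light chain of the iron store ferritin, ranged from 392 over a median of 1431 to 5614 TPM in carrying cells and from 110 over 1612 to 4680 TPM in free cells. Fech, the last enzyme of the pathway, averaged 37.7 and 39.7 TPM. The summed level of the list was 3120 TPM in carrying and 3135 TPM in free cells, a log2 ratio of -0.01, and of 0.22 outside the run.

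Blvrb, a biliverdin reductase abundant in red cells, was the member past 2-fold in the direction of the carrying cells. It was found in 11 of 41 carrying cells (26.8%, exact 95% interval 14.2 to 42.9%), highest in S126 with 118.04 TPM, and in 2 of 54 free cells, highest in S037 with 193 TPM. The log2 ratio of means was 1.31, with 3.26 without S037 and 0.94, under 2-fold, without S126. Outside the run 3 of 17 carrying cells held it, and in-between cells did in 10 of 50. Slc25a37, the mitochondrial iron importer mitoferrin 1, reached 88.9 TPM in S126, and its log2 ratio went from 0.83 to -0.36 without that cell.

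Among 19 tested genes that red cells share with other tissues, Ube2l6 was 2-fold higher and Car2 2-fold lower, against 8.14% and 8.2% of all genes, with a median log2 ratio of 0.16. The list's sum was 1204 TPM in carrying and 1218 TPM in free cells, a log2 ratio of -0.02, and of -0.10 outside the run. The log2 ratio of Car2, -1.33, rested on the free cell S037 and was 0.13 without it. Ube2l6, a ubiquitin and ISG15 conjugating enzyme rich in maturing red cells, was found in 7 carrying cells and 1 free cell. Its values were 1.08 TPM in S048, 17.1 in S087, 23.7 in S088, 35.6 in S084, 37.2 in S092, 70.2 in S091 and 79.03 in S126, against 1.22 TPM in the free cell S056. All but 1 of the carrying values lay far above the free value. Its log2 ratio was 2.82, or 2.42 without S126, and 2 of the 17 carrying cells outside the run held it. The mRNAs of Bnip3l, a mitophagy receptor, averaged 576 TPM in carrying and 652 TPM in free cells, and those of Mkrn1, a ubiquitin ligase, 87.6 and 67.7 TPM. Prdx2, a peroxiredoxin abundant in red cells, was found in 27 and 26 cells at a log2 ratio of 0.64, with its highest values in S126 (370 TPM) and S037 (237 TPM).

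Transcripts of plasma proteins had similar sums in both sets. These mRNAs are made mainly by the liver, and of the 24 listed, 8 had a mean of at least 1 TPM. Of these 8, 0 were 2-fold higher or lower, against 8.14% higher and 8.2% lower over all genes, a share at which so few members say little, and their median log2 ratio was 0.13. The summed level was 73.3 TPM in carrying and 77.9 TPM in free cells, a log2 ratio of -0.09, and of -0.08 outside the run. Alb, which encodes albumin, reached 1 TPM in 1 carrying cell, at 1.81 TPM, and in 1 free cell, S037, at 10.3 TPM. Ttr, Fga, Ambp and the 5 Serpina1 genes reached 1 TPM in no cell of either set. Most of the sum came from Gc, the vitamin D binding protein, which was found in 38 of 41 carrying and 49 of 54 free cells with medians of 26.1 and 32.02 TPM. Ahsg, the fetuin A gene, was found in 4 carrying cells and no free cell at a mean of 1.10 TPM.

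Platelet genes were at a low level in both sets. The defining genes Ppbp, Gp9 and Tubb1 were listed at 0 in every cell of both, and Pf4, platelet factor 4, was found in 1 carrying cell at 23.8 TPM. The summed level was 8.35 TPM in carrying and 14.3 TPM in free cells, a log2 ratio of -0.71 (-0.81 outside the run), and it came mostly from Gp5, a platelet glycoprotein gene found in 11 and 16 cells. The median sums lay the other way, at 4.10 TPM in carrying and 0.491 TPM in free cells.

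White blood cell genes gave a sum of 18.2 TPM in carrying and 16.6 TPM in free cells, a log2 ratio of 0.12 that turned to -0.93 with the carrying cells outside the run, and to -1.08 there without S126. The median sums were 4.91 and 1.88 TPM. Of 4 genes tested, 1 (S100a8) was 2-fold higher and 1 (Coro1a) 2-fold lower, against 8.14% and 8.2% of all genes. Coro1a had a log2 ratio of -1.86, or of -0.85 without S034. The macrophage genes Adgre1 and Tyrobp and the neutrophil granule gene Ngp were listed at 0 in every cell of both sets. H2-Aa, a class II antigen gene, led the sum in both with means of 5.596 and 6.66 TPM in 7 and 8 cells.

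S100a8 and S100a9, whose proteins pair as calprotectin in neutrophils, were found in carrying cells of the run and nowhere else. S100a8 reached 6.204, 6.74, 8.53, 13.5, 14.5, 17.1, 20.4 and 22.0 TPM in 8 carrying cells, and S100a9 reached 8.997, 16.7 and 43.96 TPM in another 3. Together they were found in 11 of the 24 carrying cells of the run (45.8%, exact 95% interval 25.6 to 67.2%), in 0 of the 17 carrying cells outside it (which allows a share of up to 19.5%), in 0 of 54 free cells (up to 6.60%) and in 0 of 50 in-between cells (up to 7.11%). Of the other neutrophil genes on the list, Ngp, Camp, Ltf and Elane reached 1 TPM in no cell of either set, Retnlg did in 1 carrying and 1 free cell, and Mpo, myeloperoxidase, in 3 carrying and 3 free cells, among them S091 at 1.04 TPM, which also held S100a9. Whether the library number or the globin level goes with S100a8 cannot be told apart in these cells.

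Summed levels of the endothelial, pregranulosa and ovary surface lists lay within 2-fold of each other when all cells were compared, with log2 ratios of 0.04, 0.27 and 0.01. With the carrying cells outside the run they were 0.02, 0.74 and -0.0045, the last becoming -0.59 without S126. Among zona cells alone they were 1.43, 1.13 and 1.90, past 2-fold, and the ovary surface list had 1.09 against the free cells numbered above 50. Pregranulosa genes, which mark the cells that enclose oocytes, summed to 7.19 TPM in carrying and 5.81 TPM in free cells. Foxl2 itself was found in 1 and 2 cells, at 16.9 TPM in S143 and at most 13.1 TPM in the free set, after the authors' screen. Of 2 tested pregranulosa genes 0 were 2-fold higher and 1 (Gata4) was lower, against 8.14% and 8.2% of all genes. Gata4 rested on few cells (3 and 5). Kitl, the ligand of the receptor Kit, had a log2 ratio of 0.85 that became -0.34 without S129. Ovary surface genes summed to means of 11 and 10.9 TPM, led by Aldh1a2, an enzyme of retinoic acid synthesis. Their median sums lay further apart, at 0.792 TPM in carrying and 0.103 TPM in free cells. Endothelial genes summed to 10.6 and 10.3 TPM. Cdh5, the cadherin of endothelial cells, was found in 0 of 41 carrying cells (which allows a share of up to 8.60%) and in 5 of 54 free cells, at most at 5.70 TPM.

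**Figure D4:**
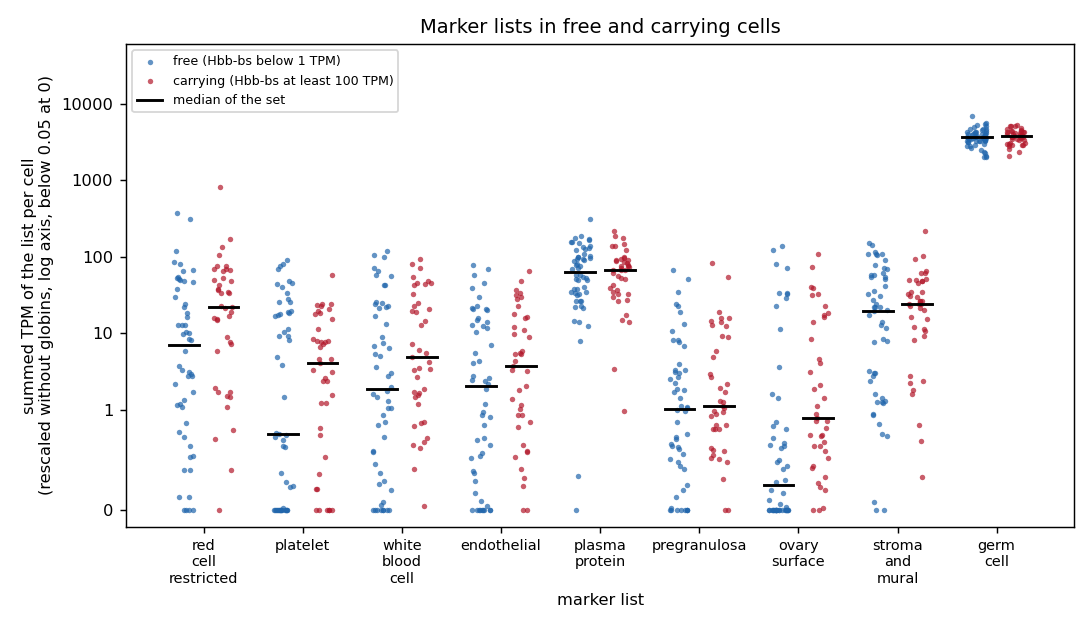
Summed rescaled TPM per cell of 8 blood, plasma and somatic marker lists and of the germ cell list, on a log axis with values under 0.05 drawn at 0, for 54 free and 41 carrying cells, with a bar at each median. In each list the sets overlap over most of their range, and the germ cell sums reach at least 1981 TPM in each cell of both.

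Stroma and mural genes gave similar sums, with single genes on either side. The sum was 33.3 TPM in carrying and 35.03 TPM in free cells, a log2 ratio of -0.07 (0.43 outside the run), and of 7 genes tested 0 were 2-fold higher and 3 were lower, against 8.14% and 8.2% of all genes: Vim, an intermediate filament gene, at a log2 ratio of -1.87, Mgp, a matrix protein gene, at -1.64 and Star, a steroid synthesis gene, at -1.05 (-0.43 without S061). Vim was found in 5 carrying and 4 free cells and Star in 11 and 12. Mgp was found in 3 free cells, and without the highest of them, S010 at 114.2 TPM, its log2 ratio was -0.05. The 3 fibrillar collagen genes of the list were at a low level. Col3a1 was found in 6 carrying cells and 1 free cell, at most at 5.43 and 6.96 TPM. Col1a1 was found in 9 carrying cells at 2.50 to 9.62 TPM, and Col1a2 in 10 carrying cells at 1.01 to 17.1 TPM, with neither in any free cell at 1 TPM. The means of these genes stayed under the limit of 1 TPM over both sets, so they are not among the 7.

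Col1a1 or Col1a2 was found in 14 of 41 carrying cells (34.1%, exact 95% interval 20.1 to 50.6%) and in 0 of 54 free cells (up to 6.60%). The share was 10 of 24 in the run and 4 of 17 outside it. In-between cells held them in 6 of 50 (12.0%, interval 4.53 to 24.3%). The limit of 1 TPM matters for this gene pair: after thinning to 500000 reads, Col1a1 had a read in 14 carrying and 6 free cells, and Col1a2 in 11 and 1. Postn, a matrix protein gene, was found in 3 carrying cells and no free cell.

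Few genes showed a pattern of this kind. Of 29811 genes that reached 1 TPM in any carrying or free cell, 12 (0.0403%) were found in at least 15% of carrying cells and in no free cell, and 3 (0.0101%) the other way round. These genes were singled out after their values were seen. The 29811 include genes found in too few carrying cells to reach 15% and genes found in most cells. The shares therefore do not say how unusual the pattern is among genes of like frequency, which was not tested. The 12 were Col1a1, Col1a2, S100a8, Crip1, Pidd1, Snn, Olfr1261 and 5 genes named by clone. Crip1, a small LIM domain protein gene of immune and connective tissue cells, was found in 8 carrying cells. Of these 12, S100a8 and 1 clone-named gene were found in no in-between cell either. Among the 17586 genes with a mean of 1 TPM or more the count was 4 (0.0227%), against 2 (0.0114%) the other way round, and S100a8 was the only listed gene among them.

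**Figure D5:**
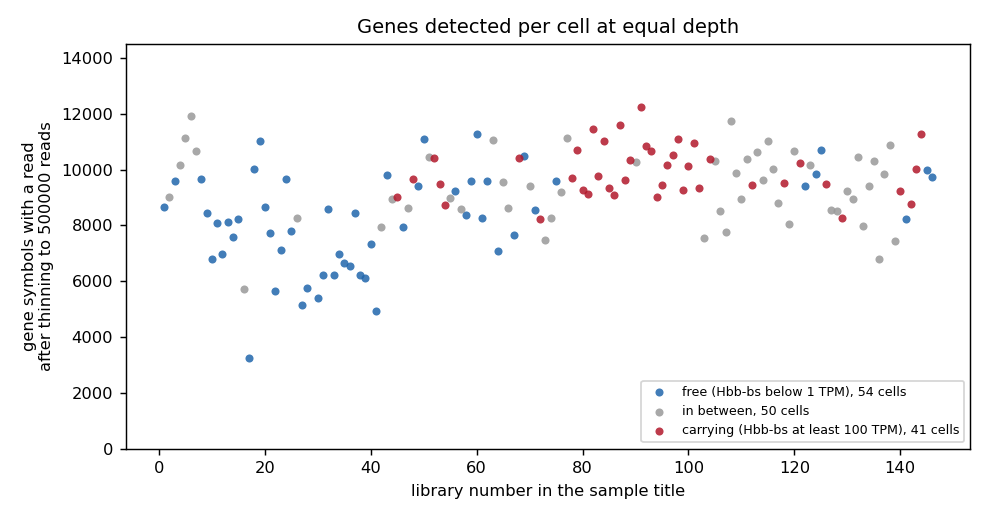
Number of gene symbols with a read after each library was thinned to 500000 reads, against the number in the library's title, 1 point per cell. Free cells numbered up to 50 have a median of 7724 genes, free cells above 50 a median of 9590 and carrying cells a median of 9684.

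Most genes were found in a larger share of carrying cells, which moves with the shares above that are higher there. A gene of median frequency was found in 48.8% of carrying and 37.0% of free cells, and 14361 of 17586 genes were found in a larger share of carrying cells. At full depth the carrying cells held 10599 to 16610 genes with a median of 13464, and the free cells 6450 to 14998 with a median of 10919. After thinning to 500000 reads the medians were 9684 and 8256. Much of this lay in the free cells with low library numbers, whose median was 7724 against 9590 for those above 50. Spike-in RNA took a median of 0.345% of reads in carrying and 0.556% in free cells. The number of red-cell-restricted genes found per cell was 2.05 in carrying and 1.06 in the 17 free cells above number 50, that of stroma genes 2.56 and 1.76, that of plasma protein genes 2.85 and 2.18, that of white blood cell genes 1.24 and 0.824, that of platelet genes 0.780 and 0.529, that of ovary surface genes 0.512 and 0.235, that of pregranulosa genes 0.561 and 0.765, and that of endothelial genes 0.829 and 0.882. The part of gene detection in these differences was not tested.

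Germ cell genes were at similar levels in both sets. Of 12 tested, 0 were 2-fold different, against 8.14% higher and 8.2% lower over all genes. At that share so few members say little. Their sum ranged from 2087 over a median of 3752 to 5321 TPM in carrying cells. In free cells it ranged from 1981 over 3607 to 6867 TPM. Ddx4, by which the cells were kept, averaged 224 and 225 TPM, and its presence in both sets was fixed by that selection. Dazl, an RNA-binding protein of germ cells, averaged 547 and 524 TPM. In S126, with a globin share of 32.5%, the germ cell sum was 4443 TPM after rescaling, within the range of the other carrying cells.

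Meiosis genes had similar levels. Of 17 tested, 0 were 2-fold different, against 8.14% higher and 8.2% lower over all genes, and the sum had a log2 ratio of -0.14. Sycp3, a lateral element protein of the synaptonemal complex, ranged from 1157 over 2518 to 5121 TPM in carrying cells and from 70.5 over 3284 to 6371 TPM in free cells, so its median was lower in carrying cells while the ranges overlapped. The free cells numbered above 50 had a Sycp3 median of 2293 TPM. None of the 7 follicle factor genes differed by 2-fold either. Figla, a transcription factor that turns on zona genes, averaged 1301 TPM in carrying and 1675 TPM in free cells, against 1283 TPM in the free cells above number 50.

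Cells of all 3 stages occurred in both sets. Cells were staged by Zp3, a zona pellucida protein gene, and Sohlh1, an oocyte transcription factor gene, each with a limit of 10 TPM. Zona cells made up 15 of 41 carrying (36.6%, exact 95% interval 22.1 to 53.1%), 12 of 54 free (22.2%, interval 12.0 to 35.6%) and 20 of 50 in-between cells (40%, interval 26.4 to 54.8%). The intervals cover counting error only, and a difference of stage between the sets was not tested. Most others held Sohlh1 without Zp3, with 25 carrying and 40 free cells, and 1 carrying and 2 free cells held neither. The zona cells among the carrying set clustered in the run, with 12 of 24, against 3 of 17 outside it.

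The summed level of zona and maternal genes followed the run accordingly. Of 13 tested, Zp3 and Khdc3, a subcortical maternal complex gene, were 2-fold higher and Nlrp5, another gene of that complex, 2-fold lower, against 8.14% and 8.2% of all genes. The list's sum had a log2 ratio of 0.13 with all carrying cells and of -1.36 with the 17 outside the run. Without its highest carrying cell, S078, Zp3 fell under 2-fold, at 0.88. Khdc3 went from 2.13 to 1.54 without S082, and Nlrp5 from -2.24 to -3.34 without S083. Outside the run Zp3 itself went from a log2 ratio of 1.12 to -1.13. The differences in the list's sum and in Zp3 between the sets thus turned with the choice of library numbers, in contrast to Alas2.

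Genes of the early response to tissue dissociation were mixed. Of 7 tested, Hspa1a was 2-fold higher through a value of 172 TPM in 1 cell, S100, and Junb was 2-fold lower, at -1.15, or 0.29 without the free cell S021. Over all genes 8.14% were higher and 8.2% lower. Fos and Jun had log2 ratios of -0.99 and -0.94. The summed level was 125.8 TPM in carrying and 120 TPM in free cells.

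Outside the lists, the largest ratios rested on genes found in a minority of the cells of the higher set. The 10 highest, among genes with at least 5 TPM in either set and found in 25% of the higher set, were led by Gm44500 and Gm22402, annotated as miRNA genes, with log2 ratios of 4.59 and 3.62. That of Gm22402 was 2.996 without S085 and 5.14 without S125. Cldn34b1, a claudin gene, followed with 3.36 and Inpp5a, an inositol phosphate phosphatase gene, with 3.05. Mid1, a ubiquitin ligase gene, had 2.95, which dropped to 0.30 without S121. Fam110b, Disc1, Spata13, Gm27647 and RP23-89M15.12 completed the 10 with 2.55 to 2.81, and RP23-89M15.12 had 1.61 without S129. Gm27647, also annotated as a miRNA gene, was found in 18 carrying and 7 free cells at means of 44.2 and 5.68 TPM. After thinning it had a read in 7 and 3. Inpp5a was found in 18 and 6 cells at 11.02 and 0.451 TPM.

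The 10 lowest included Cpeb2, a regulator of mRNA translation, with a log2 ratio of -3.53 that became 0.06 without S014. Ccdc184 had -3.13, and its 33 carrying cells held at most 23.4 TPM whereas 15 free cells held up to 922 TPM. Its log2 ratio was -2.31 without S049, the highest of these. Fbxw15, an F-box gene, had -3.08 and was found in 4 carrying and 18 free cells. H3f3c, annotated as a processed pseudogene, had -2.59 and was found in 7 and 25 cells, 23 of these 25 numbered up to 50. Skida1 and 5 clone-named genes made up the rest, at -2.14 to -2.91. Of the clone-named genes, the one at -2.91 went to -2.24 without S049, and RP23-3M10.9 went from -2.20 to -1.57 without S031.

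Over the germ cells of all sets, the genes that ranked most like Hbb-bs were the other adult globins, with a gap to the next gene. Among 12808 genes found in at least 20% of the cells, Spearman's rho with Hbb-bs was 0.89 for Hba-a2, 0.86 for Hba-a1 and 0.76 for Hbb-bt. The next were Rn7s1, the RNA of the signal recognition particle, with 0.49, the clone-named RP23-273G23.2 with 0.48 and the ribosomal protein gene Rps29 with 0.46. The 10 genes after the globins also included Dirc2, Cdh3, mt-Ts1 and Rpl38, at 0.41 to 0.44. In the 120 cells outside the run, rho was 0.80, 0.75 and 0.56 for the globins, 0.41 for Rn7s1 and 0.30 for Rps29. These values share depth and library number across cells and are a description.

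Rn7s1 ranged from 356 over a median of 2268 to 5206 TPM in carrying cells and from 45.9 over 771 to 3397 TPM in free cells. In the free cells numbered above 50 its median was 1195 TPM, against 278 TPM in those up to 50. The carrying and free ranges overlapped, and a large part of the free set's low values lay in low-numbered libraries. Rps29 had medians of 63.3 TPM in carrying, 20.8 TPM in free cells above number 50 and 8.58 TPM in free cells up to 50. Alas2 was not among the ranked genes, since it was found in under 20% of the cells.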

How the data were processed

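Smart-seq2 libraries of single cells were analysed as deposited, with 1 column per library of TPM and 1 of estimated counts per gene symbol. According to the submitters' processing notes the authors used FastQC and Salmon with the mm10 genome, and the TPM values were deposited by the authors as made from these estimates. The estimated counts deposited by the authors are not whole numbers and served here for depth and thinning only. The files hold 52605 gene symbols and 92 spike-ins, and 27995 symbols matched GENCODE M21, which gave gene types and places. The number of per-sample columns left unmapped was 0.

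Genes beginning Hba- or Hbb- were removed, and the remaining genes of each library were rescaled to the full TPM total. Means of both sets were compared as a log2 ratio with a pseudocount of 1 TPM over genes with a mean of at least 1 TPM, and 2-fold was the limit for a call. A gene was found in a cell at 1 TPM or more. Because all cells form 1 sample, no test was run, and shares have exact Clopper-Pearson 95% intervals. Thinning drew 500000 reads per library with a fixed seed. The scripts were tested on simulated data.

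The sets and the 17 gene lists were chosen with earlier results of these data known. Of 270 listed names, Ahsp and Flvcr1 were not found under these symbols. Named genes were the globins and the marker genes, from each list the members past 2-fold and the highest by mean, outside the lists the 10 highest and the 10 lowest log2 ratios (mean of at least 5 TPM, found in 25% of the higher set), and the 10 ranked most like Hbb-bs among genes found in 20% of cells. Promoters came from RefSeq. Alternatives were other limits, other scalings and pseudocounts, filters, stages and each cell left out. Python 3.11.15, pandas 2.3.3, NumPy 2.4.6, SciPy 1.17.1 and matplotlib 3.10.9 were used. The values of 1 listed gene are not reported here.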

Additional observations from a re-analysis of the deposited data

Results flagged for a closer look

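The 50 in-between cells were left out of the comparison of list sums above, and in 4 of them the summed level of the red-cell-restricted, plasma or any of the blood and ovarian somatic marker lists exceeded that of every free cell. The globin, haem and iron, shared red cell, dissociation and germ cell lists were not examined in this way. In S131, with 14.8 TPM of Hbb-bs, the white blood cell list summed to 177 TPM, against at most 120 TPM in a free cell. Of its 26 genes 3 were found: Cd68 at 76.8 TPM, H2-Aa at 61.7 TPM and Retnlg at 38.3 TPM. Their highest values in a free cell were 0.285, 120 and 56.7 TPM, so of these only Cd68 lay above every free cell. The stroma and mural list, which reached 149.6 TPM in the highest free cell, summed to 749 TPM in S051, to 282 TPM in S066 and to 1029 TPM in S076. Hbb-bs in these 3 cells was 26.9, 64.8 and 84.3 TPM. In S051 the sum was made of 10 of 22 genes, led by Vim at 296 TPM and Col1a2 at 198 TPM, and in S076 of 9 genes, led by Col3a1 at 494 TPM and Col1a1 at 217 TPM. In S066 it came almost wholly from Mfap4 at 278 TPM. These libraries kept Ddx4 at 277, 246, 225 and 134.8 TPM in the order S131, S051, S066 and S076.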

How the results depend on the processing

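Of 284 alternative values of the main results, 231 stayed within 1.5-fold of the reported one and 53 moved further. Among the log2 ratios of these main results, which are those of Alas2 and of list sums, only that of Alas2 was past 2-fold. It stayed positive in each alternative computed for it. The other single genes past 2-fold named above are not among the main results. Lists under 2-fold did change sign, and the zona list went from 0.13 to -1.36 outside the run. With Hbb-bs of at least 10 TPM, 70 cells were carrying, with log2 ratios of 3.85 for Alas2 and 0.72 for the stroma list. With at least 1000 TPM, 22 were, with 5.43 for Alas2, 1.41 for the red-cell-restricted list and -0.56 for the pregranulosa list. Sets formed by the sum of the 4 adult globins gave 4.00 for Alas2, -0.61 for ovary surface, 0.76 for stroma and 13.4% of genes 2-fold higher. Per spike-in, which moved the median of all genes to 0.35, the values were 5.32 for Alas2, 1.45 for red cell, 0.74 for white blood cell, 0.83 for ovary surface, and 13.8% of genes higher and 5.23% lower. Differences of mean log2 values were 1.80 for Alas2, 0.069 for platelet and 0.71 for ovary surface, with 0.102% of genes lower. A pseudocount of 0.1 gave 6.18 for Alas2. Without the filter on low means 3.75% of genes were higher and 3.22% lower, and with a mean of at least 10 TPM 2.64% and 2.75%. Among cells with Sohlh1 and without Zp3, Alas2 had 3.32, the red cell list -0.12 and the zona list -0.95. Among zona cells the red cell list had -0.036, white blood cell 0.76, endothelial 1.43, pregranulosa 1.13 and ovary surface 1.90, with 23.01% of genes higher and 14.4% lower. Early cells were too few to compare. Leaving out each cell in turn gave 3.58 to 4.77 for Alas2 and 0.16 (without S126) to 1.10 (without S037) for the red cell list. Chosen after seeing the data, leaving out S078 to S102 gave 5.32 for Alas2, -0.93 for white blood cell, -1.36 for zona and 15.1% of genes lower. Leaving out S126 as well gave 3.41, -1.08, -1.28 and 15.8%, with -0.27 for red cell and -0.59 for ovary surface. Using only free cells numbered above 50 gave 2.79 for red cell, 1.09 for ovary surface and 14.5% higher. The causes were not tested. No paired analysis was possible because the cells form 1 sample and their numbers pair no groups. The detection limit bears on low genes: Col1a1 was found in 9 carrying and 0 free cells at 1 TPM, and in 14 and 6 when any read counted after thinning. No effect of depth was tested.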
